A study of Rattus norvegicus with 6 samples.

Results

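The cytosolic ribosomal protein genes are described here in rat chondrosarcoma cells and in rat rib tissue. They were taken as the genes of the RNA-seq table whose symbol, in any capitals, is Rpl or Rps followed by a number and further letters or digits, or Rplp0 to Rplp2, leaving out the Rps6k kinases. That gave 138 of 27217 entries, with 88 symbols. The study sequenced 3 libraries of RCS cells, which derive from a chondrosarcoma (a cartilage tumour) of the rat, and 3 libraries of neonatal rat rib. The series title is about SOX9 with SOX5 and SOX6 acting through super-enhancers in chondrogenesis. The 2 groups differ at once in tissue, culture and malignancy, and no genotype, strain or treatment is given for either. RCS cells are 1 tumour-derived line, and rib is a tissue of many cell types. Which cultures or animals the libraries came from is not stated, so p-values measure the spread between these libraries.

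Each ribosomal protein is normally made in an amount that matches its partners, and is built together with ribosomal RNA in the nucleolus into a small (40S) or a large (60S) subunit. Most of the mRNAs are TOP mRNAs: they begin with a cytosine followed by an unbroken run of pyrimidines, through which mTORC1 and LARP1 adjust their translation. Cartilage cells that secrete matrix, and cells that divide quickly, both make many ribosomes. A few of the proteins have paralogues, encoded elsewhere in the genome, that are known for use in muscle or testis.

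The bases around the annotated transcript starts are shown for genes on which the results turn. The promoter windows come from RefSeq on the GRCr8 assembly, and each line begins 10 bases before the annotated transcript start and runs 30 bases in the direction of transcription. Capitals mark 1 run per line, the longest that starts with a C, goes on with at least 4 more pyrimidines and has that C within 10 bases of the annotated start. Shorter runs of that kind are left in lower case. Rpl31 to Rpl23 and Rps26 are shown because they were among the genes that differed most, Rps12 because it was lower in RCS cells and Rps6 because it hardly differed. Rpl10, Rpl39, Rpl3 and Rps4x are shown beside their paralogues.
Rpl31 (chr9:49143101-49143130, + strand): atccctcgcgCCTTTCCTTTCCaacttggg
Rpl37a (chr9:81748081-81748110, + strand): cccgttgcgtCTCTTCCTCTTCgggcttgg
Rpl12 (chr3:36661930-36661959, + strand): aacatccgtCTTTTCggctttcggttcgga
Rpl17 (chr18:70856266-70856295, + strand): ttcgcgCTTCCTCTTCCTgttagcggccag
Rpl23 (chr10:83272165-83272194, - strand): CTTCCTTTCTgactctttccggacgctcaa
Rpl10 (chrX:157205840-157205869, + strand): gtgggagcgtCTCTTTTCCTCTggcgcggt
Rps12 (chr1:23500065-23500094, + strand): gaagcccagcagagcgcttaaataccgtca
Rps26 (chr7:1643385-1643414, - strand): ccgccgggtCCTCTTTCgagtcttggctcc
Rps6 (chr5:106420521-106420550, - strand): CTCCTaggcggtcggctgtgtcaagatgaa
Rpl10l (chr6:90281963-90281992, - strand): tctccattttgctgctggcggtgagcacgc
Rpl39 (chrX:121195877-121195906, - strand): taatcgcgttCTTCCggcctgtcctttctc
Rpl39l (chr10:5966602-5966631, - strand): caggccgtcccgctatcctggtgtgtggtc
Rpl3 (chr7:113507971-113508000, - strand): gcctgctcgatctctatcggcggcgtgtgg
Rpl3l (chr10:14258436-14258465, + strand): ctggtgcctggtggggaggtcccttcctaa
Rps4x (chrX:71342902-71342931, - strand): cgcgcgcagCCTCCgaccctaatttcttcg
Rps4y2 (chr4:183000903-183000932, + strand): cagCTCTCCTCactcgcttgtgctctggga

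Such a start was found in 47 of 62 promoter entries, which belong to 61 of the 76 canonical proteins listed. It was present in 75.8% of these entries and in 27.8% of all 33469 entries. Within the 300 bases from 250 before to 50 after the start, both strands read, CCGGAA was in 51.6% of the canonical entries and in 15% of all entries, GGGCGG in 58.1% and 33.1%, AAGATGG in 16.1% and 7.01%, and TATAAA in 9.68% and 14.2%. None of the 4 motifs contains another, but matches of different motifs, such as CCGGAA and AAGATGG, can share letters. A match describes the sequence and is not a bound site. Among the tested canonical genes with promoter entries, 24 of 46 with a TOP-like start were called higher in RCS cells and 1 lower, with a median difference of 0.40 on the log2 scale. Of 13 without one, 6 were called higher and 1 lower, with a median difference of 0.38. Among all genes tested, 32.9% were called higher and 43.6% lower. An annotated start need not be the first transcribed base, so an entry without such a run is not shown to lack a TOP start. Whether the difference depends on the start was not tested. Genes without a matched promoter entry include Rps20, Rps25, Rps29, Rpl7, Rpl8, Rpl15, Rpl23a, Rpl27, Rpl30 and Rpl32.

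Values below are log2 levels, that is log2(normalized count + 1). From the values, a normalized count is taken to be the reads on a gene after scaling of the library by 1 factor. On that reading they were not divided by transcript length, so levels are compared between libraries and not between genes. The RCS libraries held an estimated 5997680 to 8525290 reads on genes, and the rib libraries 5319220 to 7491960. The members took 0.760%, 0.757% and 0.658% of the normalized counts of RCS libraries 1 to 3, against 0.476%, 0.383% and 0.415% in rib libraries 1 to 3. All 8 chondrocyte markers were above 0 in all 6 libraries, with Matn1 and Comp called higher in RCS cells (1.70 and 0.49), Col2a1 and Col11a2 lower (-2.62 and -1.43) and the other 4, Sox9 and Acan among them, not called. Of 5 osteoblast markers 3 were called lower and none higher, with summed normalized counts of 1277 to 1381 in RCS and 1430 to 4092 in rib libraries. The 6 skeletal muscle markers were all called lower in RCS cells, with summed normalized counts of 119.5 to 153.4 in RCS and 15040 to 28340 in rib libraries, and Myh2 was at 0 in 2 RCS libraries. The fibroblast markers (7 of 7), the myeloid markers (6 of 6), the endothelial markers (4 of 4) and the erythroid markers (5 of 6) were also lower, and Dcn, C1qa, Ptprc, Spi1, Cdh5, Kdr, Hba-a2 and Hbb were at 0 in all 3 RCS libraries. The 10 proliferation markers were all called higher, with sums of 11610 to 13000 in RCS and 4694 to 5477 in rib libraries. These markers move with every difference below, and their part in it was not tested. In such bulk samples, fewer cells of a type and less RNA per cell cannot be told apart.

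The canonical ribosomal protein genes did not keep the same level in libraries of 1 group. Over 73 canonical genes, taking 1 entry per symbol with a mean of at least 10 normalized counts, RCS library 3 lay a median of 0.25 below the mean of the other RCS libraries on the log2 scale, and 65 of the 73 genes were below. Rib library 1 lay 0.31 above the mean of the other rib libraries, with 67 of 73 genes above, and rib library 2 lay 0.27 below, with 69 below. The same median over all 14348 genes of that level was 0.00 for RCS library 3, 0.01 for rib library 1 and 0.02 for rib library 2. RCS library 3, rib library 1 and rib library 2 thus stood apart from their groups, and the groups came closest in RCS library 3 and rib library 1, as the plot of gene levels in each library shows.

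**Figure D1:**
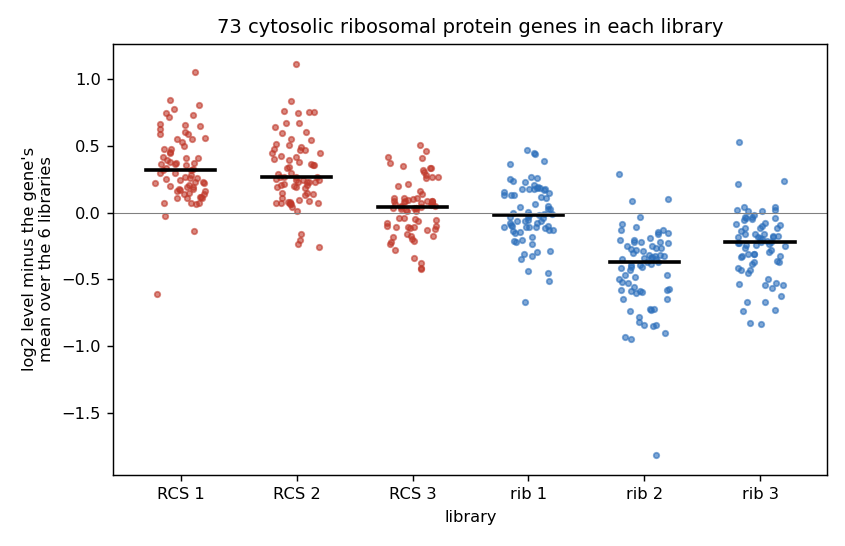
Each point is 1 of 73 canonical ribosomal protein genes in 1 library, plotted as its log2 level minus its own mean over the 6 libraries; the black bars are medians. The points of RCS libraries 1 and 2 lie mostly above 0, those of rib libraries 2 and 3 mostly below, and RCS library 3 and rib library 1 lie near 0.

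RCS library 3 was low and rib library 1 high for 64 of 73 canonical genes, against 29.0% of all genes. Both libraries were picked from the levels of these same genes. With 65 of 73 genes below in RCS library 3 and 67 above in rib library 1, a high joint count was fixed in advance and supports nothing. Across the 73 genes the shift in RCS library 3 and the shift in rib library 1 had a Pearson r of -0.844 and a Spearman rho of -0.81, and over 14348 genes they had -0.219 and -0.271. This is a description across genes, which are not independent and share each library's preparation. Rpl36, a 60S protein, had the largest shifts, -1.04 in RCS library 3 and 1.76 in rib library 1. Rps20, a protein of the 40S head, followed with -0.91 and 0.96, and Rps15, which reaches toward the decoding site, with -0.83 and 0.96. Rps26 hardly moved, at 0.01 and -0.03. Rpl36a and Rps25 ran the other way, with 0.75 and -0.70 for Rpl36a and 0.25 and -0.45 for Rps25. The 4 ribosomal proteins whose names fall outside the pattern did as the members did (4 of 4). So did 17 of 19 genes listed with the elongation factors and other TOP mRNAs, 17 of 25 genes of mTORC1 and LARP1 control, and 32 of 80 ribosome assembly and RNA polymerase I genes.

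**Figure D2:**
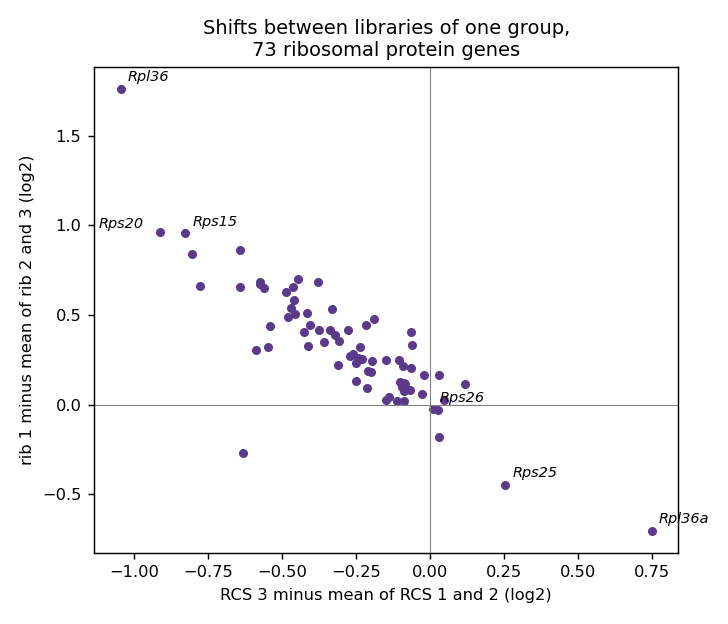
The shift of RCS library 3 from the mean of the other RCS libraries (x, log2) is plotted against the shift of rib library 1 from the mean of the other rib libraries (y, log2) for 73 canonical genes. Most points, 64 of 73, lie at the upper left, and Rpl36a and Rps25 lie at the lower right.

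Between the groups, ribosomal protein genes were more often higher than lower in RCS cells, by small amounts. Of the 138 entries, 105 passed the filter of a normalized count of at least 1 in 3 of the 6 libraries, and 30 were at 0 in every library. By limma with Benjamini-Hochberg adjustment, at an adjusted p under 0.05, 49 of the 105 (46.7%) were called higher in RCS cells, 5 (4.76%) lower and 51 neither, where 32.9% of all 16809 genes tested were called higher and 43.6% lower. The median difference, RCS cells minus rib tissue, was 0.37 for the tested members and -0.15 for all genes tested. With a 2-fold limit added, 10 of the 105 members were called higher, a smaller share than the 14.1% of all genes. At this limit 3 of the 105 were called lower, where 33.1% of all genes were. The 3 lower at this limit (Rps4y2, Rpl10l and RPL21), which are also 3 of the 5 called lower without it, and Rpl39l among the higher were at 0 in every library of 1 group and had passed the filter only through the other, so these counts are not evidence of a direction. The groups did not overlap for 50 of the 105 members higher in RCS cells and 5 of the 105 lower, against 34.4% and 44.5% of all genes. Among genes with a mean of at least 100 normalized counts, 39 of 71 members (54.9%) were called higher, beside 42.3% of 9762 genes, and 2 were called lower, beside 35.2%.

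The count of members called higher depended on the libraries kept and on the scaling, while 3 to 6 members were called lower under the settings tried. It was 36 of the 105 (34.3%, beside 29.6% of all genes) without RCS library 1, and 43 (40.95%, beside 32.96%) without rib library 3. Without RCS library 2, 31 of the 105 (29.5%) were called higher, beside 29.2% of all genes. Without rib library 2, 38 (36.2%) were called higher, beside 30.9% of all genes. The count was 51 (48.6%, beside 30.4% of all genes) without RCS library 3 and 60 (57.1%, beside 32.5%) without rib library 1. Without both RCS library 3 and rib library 1, a setting chosen after seeing the members' values in these libraries, 68 of 105 (64.8%) were called higher and 6 lower, beside 30.9% and 41.4% of all genes. Since these libraries lay toward the other group, leaving out either or both widens the difference by construction, and the larger counts support nothing. Scaling each library to the same total, also chosen after seeing the data, gave 80 higher (76.2%) and 3 lower, where 44.1% of all genes were higher and 36.2% lower and their median was 0.19. The members' median was 0.71 above that of all genes without both RCS library 3 and rib library 1, and 0.38 to 0.64 above it under the other settings tried. Among genes with a mean of at least 100 normalized counts, the median was 0.40 for members and 0.11 for all genes.

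With 1 entry per symbol, the 74 canonical proteins that the table held gave 39 called higher (52.7%), 2 called lower (2.70%) and 33 neither. Of all genes tested, 32.9% were called higher and 43.6% lower. Of all genes with a mean of at least 100 normalized counts, 42.3% were called higher and 35.2% lower. The canonical proteins had a median difference of 0.40, and 67 of the 74 differences were above 0. Above 0 were 7680 of all 16809 genes tested, and 5377 of the 9762 with a mean of at least 100 normalized counts. Of 30 small-subunit proteins, 14 were called higher and 1 lower, with a median difference of 0.35. Of 44 large-subunit proteins, 25 were called higher and 1 lower, with a median difference of 0.44.

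**Figure D3:**
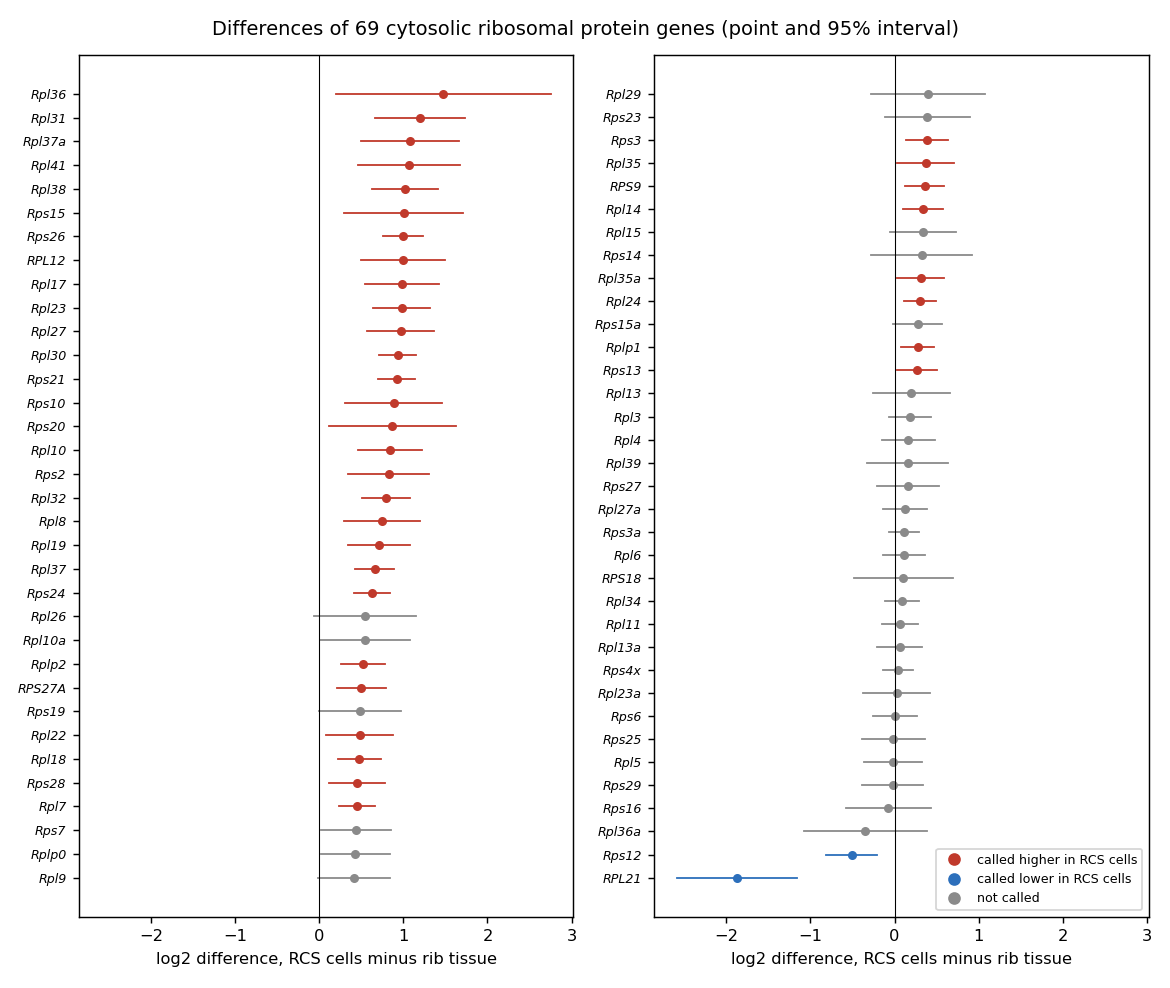
Points are the fitted log2 differences, RCS cells minus rib tissue, of 69 canonical ribosomal protein genes and lines are their 95% intervals, sorted from the highest at the upper left. Red points (36) were called higher in RCS cells, blue points (2, Rps12 and RPL21) lower, and grey points (31) were not called.

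Among small-subunit proteins at the mRNA entry channel, all 3 were called higher, where 32.9% of all genes were. Rps2, at the mouth of the channel, had log2 levels of 8.64, 8.50 and 8.08 in RCS libraries, against 8.0, 7.27 and 7.47 in rib libraries. The groups did not overlap, and RCS library 3 and rib library 1 were nearest to each other, for a difference of 0.83 ± 0.21 (SE, n = 3 each; limma adjusted p = 0.00647). Rps3, which also lines the channel, was at 10.48, 10.50 and 10.29 in RCS libraries, against 10.20, 9.85 and 10.07 in rib libraries. Its groups did not overlap, the difference was 0.38 ± 0.11 (limma adjusted p = 0.0114), and it missed the threshold without RCS library 2 (limma adjusted p = 0.0511). RPS9 differed by 0.36 ± 0.10 (limma adjusted p = 0.0113).

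At the mRNA exit side 3 of 4 proteins were called higher, beside 32.9% of all genes. Rps26, which contacts the mRNA as it leaves and whose human gene is mutated in Diamond-Blackfan anaemia, was at 8.26, 8.30 and 8.29 in RCS libraries, against 7.27, 7.14 and 7.45 in rib libraries. All RCS libraries lay well above all rib libraries, and the RCS libraries were nearly equal. The difference was 1.0 ± 0.10 (limma adjusted p = 3.91e-05). Rps28 differed by 0.45 ± 0.15 (limma adjusted p = 0.0206). Rps14, with 5.44, 4.59 and 4.99 in RCS libraries and 4.73, 4.53 and 4.81 in rib libraries, overlapped between the groups (0.32 ± 0.26, limma adjusted p = 0.291). It was called under cyclic loess (1.23, limma adjusted p = 0.00329), quantile normalization (2.07, limma adjusted p = 0.000337) and equal library totals (0.65, limma adjusted p = 0.0475). Rps21, a small 40S protein, had 8.31, 8.28 and 8.23 in RCS libraries, against 7.49, 7.26 and 7.32 in rib libraries, and was likewise steady within each group (0.92 ± 0.09, limma adjusted p = 3.79e-05). Near the decoding site, Rps15 was called (1.0 ± 0.31, limma adjusted p = 0.0166) although its groups overlapped, because rib library 1 (8.94) exceeded RCS library 3 (8.76), and Rps23 was not called (0.39 ± 0.22, limma adjusted p = 0.137).

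Rps12, a protein of the 40S beak, was the 1 well-expressed canonical gene called lower in RCS cells. It had log2 levels of 7.27, 7.20 and 6.98 in RCS libraries, against 7.85, 7.49 and 7.64 in rib libraries. Every RCS library was below every rib library, with a difference of -0.51 ± 0.13 (limma adjusted p = 0.00678). Scaled to equal library totals the difference was -0.17 and was no longer called (limma adjusted p = 0.211), since that scaling moved all genes up. RPL21 was the other canonical entry called lower. It was listed at 0 in all RCS libraries and at 2.17, 1.43 and 2.02 in rib libraries, and its other entries were at 0 throughout, so it rests on a few reads, and the sign of its difference turned to 0.69 under cyclic loess and 0.17 under quantile normalization.

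In the large subunit, the 8 called genes with the largest differences and no overlap between groups were Rpl31, Rpl37a, Rpl41, Rpl38, RPL12, Rpl17 and Rpl23 beside Rps26 of the small subunit. Rpl31, at the rim of the exit tunnel where nascent chains meet their chaperones, was at 8.60, 8.50 and 7.97 in RCS libraries, against 7.62, 6.83 and 7.03 in rib libraries. The nearest values were RCS library 3 and rib library 1, and the difference was 1.20 ± 0.23 (limma adjusted p = 0.00154). Rpl38, which in mouse is needed for patterning of the axial skeleton, was at 6.80, 6.62 and 6.64 in RCS libraries, against 5.94, 5.45 and 5.61 in rib libraries. It was higher in all RCS libraries, by 1.02 ± 0.17 (limma adjusted p = 0.00063). Rpl23, at the face that joins the small subunit, was at 9.66, 9.65 and 9.32 in RCS libraries, against 8.84, 8.33 and 8.52 in rib libraries. It was also higher in all RCS libraries, by 0.98 ± 0.15 (limma adjusted p = 0.000375).

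Rpl37a, a zinc-binding 60S protein, was at 9.88, 9.94 and 9.13 in RCS libraries, against 9.0, 8.26 and 8.44 in rib libraries. The groups did not overlap, with RCS library 3 and rib library 1 nearest to each other, and the difference was 1.08 ± 0.25 (limma adjusted p = 0.00434). Rpl41, a very short basic protein between the subunits, differed by 1.07 ± 0.26 (limma adjusted p = 0.00569). RPL12, at the base of the stalk, differed by 1.0 ± 0.22 (limma adjusted p = 0.0029). Rpl36 had the highest difference of all canonical genes, 1.47 ± 0.55, yet its libraries overlapped, with 6.01, 6.07 and 5.0 in RCS cells and 5.39, 3.14 and 4.12 in rib tissue. Its limma adjusted p of 0.0385 was between 0.107 and 0.149 without any 1 of RCS library 1, RCS library 2, rib library 2 or rib library 3.

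Proteins that work at the same site were not all called alike, and differences between these genes were not tested. In the wall of the exit tunnel, Rpl17 was at 7.86, 7.80 and 7.20 in RCS libraries, against 6.46, 6.76 and 6.70 in rib libraries. Its groups did not overlap and it differed by 0.99 ± 0.19 (limma adjusted p = 0.00149). Rpl4 and Rpl39, its neighbours there, were not called, with 0.17 ± 0.14 and 0.16 ± 0.21, though under quantile normalization Rpl4 was called (0.41, limma adjusted p = 0.0114) and so was Rpl39 (1.47, limma adjusted p = 0.00117). Rpl4 was also called with equal totals (0.51, limma adjusted p = 0.00353). At the rim, Rpl19, Rpl22, Rpl31 and Rpl35 were called higher, and Rpl26 and Rpl23a were not. The groups of Rpl22 did not overlap (0.48 ± 0.17, limma adjusted p = 0.0316), but its call was not stable. It was lost with a smaller difference without RCS library 1 (0.33, limma adjusted p = 0.123), without rib library 2 (0.35, limma adjusted p = 0.117), under cyclic loess (0.27, limma adjusted p = 0.208) and under median scaling (0.43, limma adjusted p = 0.0516). Without RCS library 2 or rib library 3 the difference was 0.53 in both cases and missed the threshold (limma adjusted p = 0.0541 and 0.0567).

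At the peptidyl transferase centre, Rpl10, which joins the subunit last, was at 9.90, 9.78 and 9.30 in RCS libraries, against 9.03, 8.72 and 8.70 in rib libraries. It was higher in every RCS library, by 0.84 ± 0.17 (limma adjusted p = 0.00168). Rpl3, which folds toward the same centre, was at 10.63, 10.54 and 10.33 in RCS libraries, against 10.47, 10.19 and 10.29 in rib libraries. Those groups overlapped and the gene was not called (0.18 ± 0.11, limma adjusted p = 0.157). Rpl3 was called under cyclic loess (0.30, limma adjusted p = 0.00899) and quantile normalization (0.53, limma adjusted p = 0.000541). With equal totals it was also called (0.52, limma adjusted p = 0.000571).

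In the stalk that recruits elongation factors, Rplp1 and Rplp2 were called higher, by 0.28 ± 0.08 and 0.52 ± 0.11. Rplp0, the member with the most normalized counts, was at 11.19, 11.12 and 10.68 in RCS libraries, against 10.89, 10.35 and 10.46 in rib libraries. It overlapped in RCS library 3 and rib library 1 and just missed the threshold (0.43 ± 0.18, limma adjusted p = 0.0537). Without RCS library 3 it was called (0.59, limma adjusted p = 0.0159), as it was without rib library 1 (0.59, limma adjusted p = 0.0197). Leaving out either library, which lay toward the other group, widens the difference by construction. Rplp0 was also called with array weights (0.57, limma adjusted p = 0.0161), cyclic loess (0.62, limma adjusted p = 0.00444), quantile normalization (0.93, limma adjusted p = 0.000494) and equal totals (0.77, limma adjusted p = 0.00154). Rpl5 and Rpl11, which with 5S ribosomal RNA bind MDM2 when ribosome assembly fails, were not called. Rpl5 was at 8.78, 8.65 and 8.31 in RCS libraries, against 8.82, 8.40 and 8.57 in rib libraries, with a difference of -0.02 and a 95% interval from -0.36 to 0.33. Rpl11 differed by 0.06, with an interval from -0.15 to 0.28.

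The members with at least 100 normalized counts and the smallest differences were Rps6, Rps25, Rpl5, Rps29 and Rpl23a. Rps6, the substrate of the S6 kinases, was at 8.99, 8.96 and 8.70 in RCS libraries, against 9.06, 8.73 and 8.85 in rib libraries. Its difference was 0.01, with a 95% interval from -0.26 to 0.27. Rps25, which many viral internal entry sites need, differed by -0.02, with an interval from -0.39 to 0.36. Relative to the median of all genes (-0.15) all 5 lay slightly higher, and the sign of each turned under at least 1 scaling or with 1 library left out. Taken as scaled reads, normalized counts grow with transcript length, so an order of genes by them is not an order of mRNA amounts. After Rplp0, Rpl3, Rps3 and Rpl4 had among the most normalized counts, and of these Rps3 (above) was called. Those with the fewest were RPL21, Rps14, Rpl36a, Rpl36 and Rpl39. Rpl36a, at 4.37, 4.74 and 5.30 in RCS libraries and 4.68, 5.27 and 5.51 in rib libraries, overlapped and was not called (-0.35 ± 0.32, limma adjusted p = 0.339).

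Of the 8 paralogues, 3 were called higher, 3 lower and 2 neither, and 3 of those called were listed at 0 in every library of 1 group. Among all genes tested, 32.9% were called higher and 43.6% lower. Rpl39l, an exit-tunnel protein best known from mouse testis, was at 7.35, 7.31 and 7.49 in RCS libraries and was listed at 0 in all rib libraries. It was at least 59.8-fold higher in RCS cells, taking 3 reads per library as the limit for rib tissue. Its parent Rpl39 was at 5.75, 5.77 and 5.34 in RCS libraries, against 5.73, 5.32 and 5.33 in rib libraries, which overlap.

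Rps4y2, whose human counterpart is on the Y chromosome, was listed at 0 in all RCS libraries and was at 6.63, 6.68 and 6.87 in rib libraries. It was at least 59.3-fold lower in RCS cells. Rps4x, the parent, was at 9.04, 9.01 and 8.91 in RCS libraries, against 8.96, 8.88 and 9.01 in rib libraries, and was not called (0.04 ± 0.08). Rpl10l, which in mouse replaces Rpl10 during male meiosis, was listed at 0 in all RCS libraries and was at 4.70, 4.98 and 4.89 in rib libraries, at least 15.8-fold lower in RCS cells. These 3 paralogues and RPL21 were above 0 in every library of 1 group and at 0 in every library of the other, so they passed the filter through the group in which they were high.

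**Figure D4:**
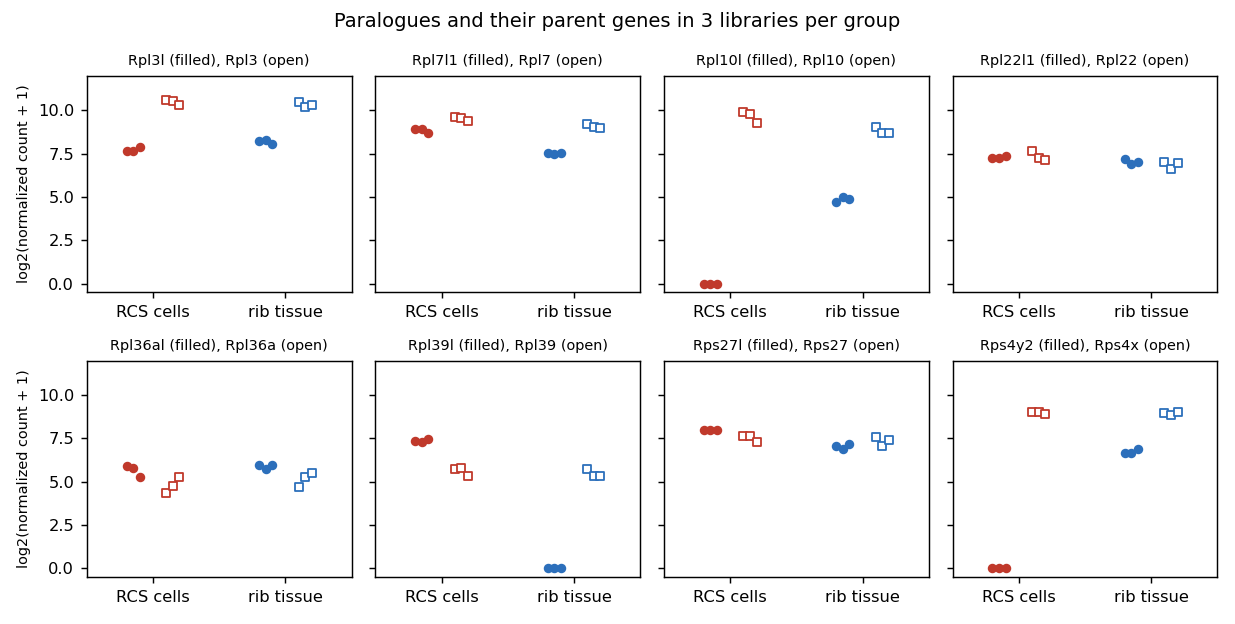
Each panel gives the log2 level, log2(normalized count + 1), of a paralogue (filled circles) and its parent gene (open squares) in 3 RCS libraries (red) and 3 rib libraries (blue). Rpl39l is at 0 in all rib libraries, and Rps4y2 and Rpl10l are at 0 in all RCS libraries, while the parent genes are above 0 in all 6.

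Rpl3l, which in mouse and human takes the place of Rpl3 in skeletal and heart muscle, was at 7.64, 7.64 and 7.86 in RCS libraries, against 8.23, 8.31 and 8.05 in rib libraries. It was lower in all RCS libraries, with a difference of -0.48 ± 0.11 (limma adjusted p = 0.00339), and scaled to equal library totals it was not called (-0.15, limma adjusted p = 0.294). It stood at this level in RCS libraries whose summed muscle markers were 119.5 to 153.4 normalized counts, beside 15040 to 28340 in rib libraries. Rpl7l1, a relative of Rpl7, was at 8.93, 8.95 and 8.72 in RCS libraries, against 7.53, 7.47 and 7.55 in rib libraries. It was higher in all RCS libraries, by 1.35 ± 0.09 (limma adjusted p = 3.32e-06). Rps27l, in human a target of p53, was at 7.97, 7.98 and 7.99 in RCS libraries, against 7.05, 6.90 and 7.16 in rib libraries. It was higher in all RCS libraries, by 0.94 ± 0.10 (limma adjusted p = 4.51e-05). Rpl22l1 and Rpl36al were not called (0.25 ± 0.11 and -0.23 ± 0.21).

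The ratio of paralogue to parent was compared for the 5 pairs above 0 in every library, with an exact two-sided permutation test that cannot go below 0.1 with 3 libraries a group. The log2 ratio of Rpl7l1 to Rpl7 was -0.71, -0.63 and -0.68 in RCS libraries, against -1.69, -1.59 and -1.45 in rib libraries, a difference of 0.91 ± 0.07. The log2 ratio of Rps27l to Rps27 was 0.34, 0.34 and 0.72 in RCS libraries, against -0.55, -0.18 and -0.24 in rib libraries, a difference of 0.79 ± 0.17. That of Rpl3l to Rpl3 was -2.99, -2.91 and -2.48 in RCS libraries, against -2.25, -1.88 and -2.24 in rib libraries, a difference of -0.67 ± 0.20. In these 3 pairs the groups did not overlap, each with an exact permutation p of 0.1 and 0.167 after adjustment over 5 pairs. The ratios of Rpl22l1 to Rpl22 and of Rpl36al to Rpl36a overlapped between the groups (exact permutation p of 0.4 and 0.9).

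Copies limit what can be said of single entries. Several entries in the table shared a symbol in 29 cases, 79 entries in all, and RefSeq names between 1 and 36 genes after each of 76 canonical proteins as copies or similar genes, with a median of 14.5. How reads that match several copies were counted is not given in the sources used here. Where a symbol had several entries, 1 usually held most of the normalized counts, as for Rpl38 (97.0%) and Rpl37a (90.5%). Exceptions were Rps7, whose highest entry held 52.7%, RPS18 with 55.8%, Rps24 with 61.4%, Rps29 with 61.7% and Rpl6 with 62.8%. Of 20 further entries that were tested, 6 (30%) were called higher, 0 lower and 14 neither, where 32.9% of all genes were called higher and 43.6% lower. Among the 6 were second entries of Rps24, Rps20, Rps27a and Rpl6. Summing entries of 1 symbol before the test left 40 of 74 canonical proteins higher and 2 lower. A further 6 entries matched the pattern without being listed as canonical proteins or paralogues, and 3 of them were tested. Rps19bp1, a SIRT1 regulator and not a ribosomal protein, was called higher (0.71 ± 0.10, limma adjusted p = 0.000283). Rps10l1 and Rps19l1, named after ribosomal proteins, were not called.

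The 4 ribosomal proteins whose names do not carry the pattern gave 2 calls, both higher in RCS cells, where 32.9% of all genes were called higher. Rpsa, a 40S protein also known as the laminin receptor, overlapped and was called at the threshold (0.48 ± 0.19, limma adjusted p = 0.0456). It lost the call without RCS library 1, RCS library 2, rib library 2 or rib library 3, where the limma adjusted p was 0.126 to 0.188, under median scaling (0.0692) and with a pseudocount of 0.1 (0.0654). Fau and Gnb2l1, the gene of RACK1, were not called, with 0.39 ± 0.25 and 0.19 ± 0.12. Fau was called without RCS library 3 (0.63, limma adjusted p = 0.0398) and with equal totals (0.73, limma adjusted p = 0.0185). Leaving out RCS library 3, which lay toward the rib libraries, widens that difference by construction.

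Genes that build ribosomes had a higher median difference than the genes of the finished particle. Of 80 ribosome assembly and RNA polymerase I genes, 72 were called higher in RCS cells (90.0%) and 3 lower (3.75%), with a median difference of 0.97. Among all genes, 32.9% were called higher and 43.6% lower. Rrs1, which brings the 5S particle into the 60S precursor, was at 8.77, 8.79 and 8.56 in RCS libraries, against 6.72, 6.54 and 6.85 in rib libraries. It was higher in all RCS libraries, by 2.01 ± 0.12 (limma adjusted p = 1.35e-06). Rrp9, of the U3 particle that processes ribosomal RNA, was higher by 1.87 ± 0.12 (limma adjusted p = 2.48e-06). The exceptions were Taf1b, a promoter factor of RNA polymerase I (-0.59 ± 0.19), Ltv1, a 40S assembly factor (-0.36 ± 0.09), and Gnl2 (-0.32), a GTPase of 60S assembly. Taf1b was not called under quantile normalization (-0.048, limma adjusted p = 0.861), with equal totals (-0.25, limma adjusted p = 0.274), with array weights (-0.48, limma adjusted p = 0.0505), or without RCS library 1, rib library 2 or rib library 3 (limma adjusted p = 0.0642 to 0.077). Ltv1 was not called with equal totals (-0.024, limma adjusted p = 0.831). The lists were compared by their counts and medians, and the difference between lists was not tested.

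Of 19 genes listed with the elongation factors and other TOP mRNAs, 8 were called higher (42.1%) and 5 lower (26.3%), with a median difference of 0.25. Of all genes, 32.9% were called higher and 43.6% lower. Eef1e1 and Eef2k are in this list by name but are not elongation factors. At a 2-fold limit they were the 1 gene called higher and 1 of the 2 called lower. Eef1e1, of the aminoacyl-tRNA synthetase complex, was at 8.66, 8.65 and 8.56 in RCS libraries, against 7.24, 7.33 and 7.49 in rib libraries, higher in all RCS libraries by 1.27 ± 0.09 (limma adjusted p = 5.8e-06). Eef2k, the kinase that inhibits Eef2, was at 7.13, 7.08 and 7.04 in RCS libraries, against 9.15, 8.97 and 8.36 in rib libraries, with a difference of -1.74 ± 0.19 (limma adjusted p = 4.66e-05). Eef2, which moves the ribosome along the mRNA, differed by 0.76 (limma adjusted p = 0.00263), and Eif3e, an initiation factor subunit, by 0.91 ± 0.15 (limma adjusted p = 0.000538). Eef1a2, the form of elongation factor 1A used in muscle and nerve, was at 1.06, 0.00 and 0.00 in RCS libraries, against 9.70, 9.60 and 8.72 in rib libraries. Its difference of -8.98 ± 0.38 stands beside the muscle markers above. Eef1a1, the general form, was called higher by 0.33 (limma adjusted p = 0.0249).

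Of 25 genes of mTORC1 and LARP1 control, 8 were called higher (32.0%) and 6 lower (24.0%), with a median difference of 0.10. Of all genes, 32.9% were called higher and 43.6% lower. The share called higher was thus close to that of all genes, and the share called lower was smaller. Eif4e, which binds the mRNA cap, was higher by 0.96 ± 0.12 and Rheb, the GTPase that activates mTORC1, by 0.88 ± 0.10. Mtor, the kinase, was at 9.89, 9.59 and 9.64 in RCS libraries, against 10.55, 10.50 and 10.48 in rib libraries, a difference of -0.81 ± 0.10 (limma adjusted p = 8.79e-05). Rragd, a Rag GTPase, had a difference of -3.67 ± 0.41, and Larp1 was not called (0.04).

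**Figure D5:**
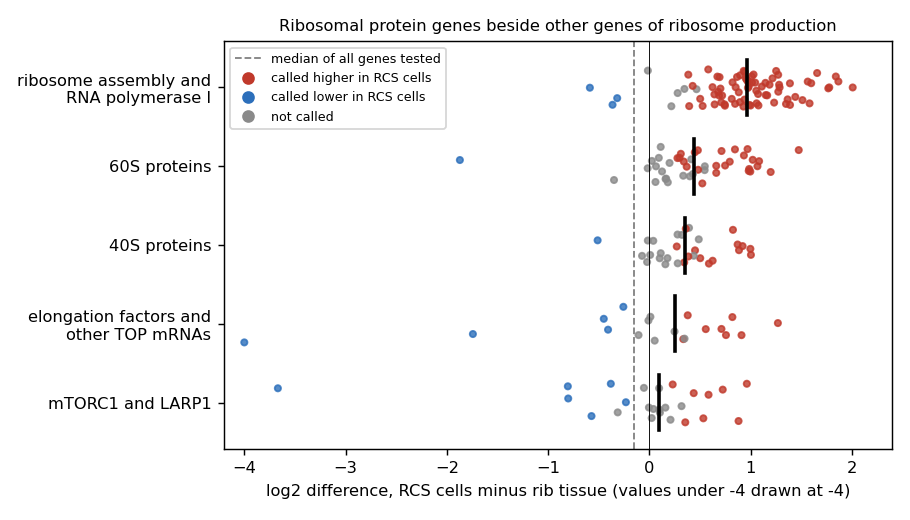
Points are fitted log2 differences, RCS cells minus rib tissue, of genes in 5 lists, black bars are list medians and the dashed line is the median of all genes tested (-0.15). The assembly genes lie furthest to the right with a median of 0.97, the 60S and 40S proteins have medians of 0.44 and 0.35, and 1 gene under -4 is drawn at -4.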

How the data were processed

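The authors deposited 1 table of log2 values for 27217 genes in 6 libraries, 3 of RCS cells and 3 of rib tissue. From the values, these are taken to be log2 of read counts after scaling by 1 factor for each library, called normalized counts, although the name of the table carries a unit per length. The submitters' processing notes name CASAVA 1.8, DESeq and the build rn5 but give them no role. The aligner, counting rule, use of strand and handling of multiply matching reads were not given in the sources used here. Among low values (up to 10 reads), 39.5% to 55.6% in a library were within 0.01 of a whole read, so reads were not recovered and no count model was used. Depth is the sum of normalized counts divided by what 1 read is worth.

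The test was limma 3.58.1 (R 4.3.3) with an intensity trend, two-sided, on log2(normalized count + 1) of the whole table, without a replicate block, and was first tested on simulated data. It covered 16809 genes that reached 1 normalized count in 3 or more libraries, with Benjamini-Hochberg adjustment over all of them. Genes were called at an adjusted p under 0.05. Fold changes on this scale understate changes of low genes. Of columns with values per sample, 0 were left unused, and no library pair was identical (0 pairs). Genes were named by rule: paralogues with their parents, the 8 called canonical genes with the highest differences and no overlap and those lowest, the 5 highest, the 5 lowest and the 5 nearest to no difference, the proteins the pattern misses and 2 at each end of each context list. Other genes, such as those given by ribosomal site, were chosen by their role, and further ones, such as Eef2 and Eef1a1, after their values were seen. The members and lists were chosen with earlier results of these data known. Other normalizations, pseudocounts, filters, weights, the replicate block and leaving out libraries were tried. Rpl7a, Rpl28, Rpl26l1, Polr1d, Gas5, Snhg1, Ttn and Neb were not analysed here, and the values of some genes counted in the totals are not reported here. Of canonical proteins, 61 matched the RefSeq promoter table by symbol, with 62 entries.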

Additional observations from a re-analysis of the deposited data

How the results depend on the processing

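The members called higher numbered 49 (46.7%, beside 32.9% of all genes), 81 under quantile normalization (77.1%, beside 47.6%), 80 with library totals made equal (76.2%, beside 44.1%), and 31 to 60 with 1 library left out, 31 without RCS library 2. The members called lower numbered 5, 3 with equal totals, 2 among canonical proteins alone, and 5 to 6 with 1 library left out. The median difference of 0.37 became 0.91 under quantile normalization and 0.69 with equal totals, and 0.29 to 0.46 with 1 library left out. Equal totals, summed entries and leaving out RCS library 3 with rib library 1 were chosen after seeing the data. Of all calls over all genes 43.0% were higher, against 61.9% under quantile normalization, 54.9% with equal totals and 50.1% under cyclic loess, and the median of all genes moved from -0.15 to 0.32, 0.19 and 0.03. The canonical proteins called higher were 54, 65 and 32 of 74 in those settings, beside 47.6%, 44.1% and 37.1% of all genes. Under quantile normalization assembly genes called lower numbered 1 of 80, TOP and elongation genes lower 3 of 19, and mTORC1 genes higher 14 of 25. Of all genes, 47.6% were called higher and 29.3% lower in that setting. With the replicate block 52 members were higher and 5 lower, with a median of 0.37, and Rplp0 (limma adjusted p = 0.0104) and Fau (limma adjusted p = 0.0451) gained a call. Deviations of libraries with the same number had r of 0.06, -0.08 and 0.05 over all genes and 0.44, -0.42 and 0.57 over the members, not all above 0.1, so the numbers were not taken as pairs. Over 53 named genes, 801 of 900 values kept sign and call, 33 gained a call with the same sign, 27 lost one and 39 changed sign, all in genes that were not called except RPL21. Of the 39, 3 were then called higher: Rpl36a and Rpl36al under quantile normalization (limma adjusted p = 0.0114 and 0.0139) and Rpl5 with equal totals (limma adjusted p = 0.0461). The cause of these changes was not tested. RPL21 has no value with a mean of at least 10.

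Signs turned as follows. Quantile normalization gave RPL21 0.17, Rpl36a 1.28, Rpl36al 0.90, Rpl5 0.024, Rps25 0.36 and Rps29 0.44. Cyclic loess gave RPL21 0.69, Rpl23a -0.21, Rpl36a 0.43, Rps27 -0.077, Rps4x -0.073 and Rps6 -0.11. Median scaling gave Rpl23a -0.027, Rps4x -0.013 and Rps6 -0.043. Equal totals gave Rpl36al 0.11, Rpl5 0.32, Rps25 0.32 and Rps29 0.32. Array weights gave Rpl5 0.094 and Rps29 0.025, and summed entries gave Rps29 0.027. Without RCS library 3 and rib library 1, Rpl36al had 0.011, Rpl5 0.23 and Rps29 0.20. With 1 library left out the differences ran from -0.13 to 0.16 for Rpl23a, from -0.12 to 0.12 for Rpl5, from -0.16 to 0.087 for Rps25, from -0.12 to 0.096 for Rps29 and from -0.067 to 0.097 for Rps6. Depth limits entries at 0 to under about 1 to 2 reads.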
